A study of Mus musculus with 189 samples.

Results

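The 10 genes described here encode receptors for extracellular nucleotides and adenosine, together with an enzyme that degrades the nucleotides. They are P2rx1, P2rx4, P2rx7, P2ry1, P2ry2, P2ry14, Adora2a, Adora2b, Adora3 and Entpd1. They were chosen by symbol, and all 10 were found among the 46078 gene rows of the table. RNA was sequenced from single cells of the peritoneal cavity of 4 female C57BL/6 mice, with no treatment named. Live lineage-negative cells carrying c-Kit and FcεRI, the receptor for IgE, were sorted into 2 groups. The 94 mature mast cells (mature cells for short) scattered much light to the side and stained weakly for integrin β7. The 95 basophil-mast cell progenitors (BMCPs) scattered little light and stained strongly for it. No label says which mouse a cell came from, which leaves 1 pooled sample per group. No difference below has a replicate check or a test, and the intervals cover counting error only.

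ATP leaves stressed, damaged or activated cells and acts on 2 families of receptors at the cell surface. P2X receptors are ATP-gated cation channels, and P2Y receptors are coupled to G proteins. Enzymes at the cell surface, Entpd1 among them, remove phosphates from ATP, and the adenosine made from it acts on its own G protein-coupled receptors. Mast cells are known to respond to both, since ATP can trigger or strengthen their degranulation and adenosine acting on Adora3 strengthens IgE-driven release in rodents.

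All 94 mature mast cells and 93 of the 95 BMCPs had at least 100000 reads on endogenous genes and were kept. Their totals ran from 561600 to 2152221 reads in mature mast cells and from 344022 to 2091665 in BMCPs. Thinned to 100000 reads, the median cell had 2886 detected genes in the mature cells against 2467 in BMCPs. The median ratio of endogenous to ERCC spike-in reads was 939 in the mature cells against 562 in BMCPs. The 8 mast cell markers together had a per-cell median of 274479 CPM (the reads of a gene over all endogenous reads, on a scale common to all cells) in the mature cells against 161600 CPM in BMCPs. Markers of other cells were read unevenly. The 4 basophil genes summed to 3491 CPM pooled over mature mast cells and 5259 CPM over BMCPs, and they did not go 1 way. Mcpt8 (30.2 and 3294 CPM) and Itga2 (3.83 and 40.5 CPM) were higher in BMCPs. Prss34 (2899 and 1580 CPM) and Cd200r3 (557 and 345 CPM) were higher in mature mast cells. The 5 B cell genes summed to 255 and 666 CPM, and Ighm was present in 46 mature mast cells and 25 BMCPs. The 4 platelet and megakaryocyte genes summed to 228 and 424 CPM, nearly all from Itga2b, while Pf4 and Ppbp had no read. The macrophage, T cell, eosinophil and neutrophil lists each summed to at most 15.9 CPM in a group, with Adgre1, Csf1r, C1qb, Cd3e, Cd3d, Prg2 and S100a8 at 0, and both NK cell genes were at 0. The part of these other cell types in the results was not tested. BMCP 46 and BMCP 80 stood apart from their label. Their summed mast cell markers were 363 and 505 CPM, against at least 24175 CPM in every other BMCP. Both had high Cd74, an antigen presentation gene, at 49765 and 43636 CPM, and high Cd79b, a B cell receptor gene, at 2512 and 6856 CPM. BMCP 53 had 960.5 CPM of Kit and 45406 CPM of Cpa3 together with 805 CPM of Ccr3, from the eosinophil list. The other genes of that list, Siglecf, Epx and Prg2, had no read in this cell. It also had 803 CPM of Itga2, from the basophil list, which 9 BMCPs had at 10 CPM or more. Values of the other basophil genes in this cell are not given here. From the B cell list it had 1244 CPM of Ighm and no read of Cd79b. Results were recomputed without these 3 cells.

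Of the 10 genes, 8 were read in both groups, and P2ry2 and Adora2b had no read in any kept cell. Levels were compared between genes as RPKM, a CPM divided by the kilobases of exon. P2rx1 had the highest pooled RPKM, at 210.4 in the mature cells against 153 in BMCPs. P2rx4 followed with an RPKM of 145 and 134, and Adora3 with 66.8 and 63.6. P2rx7 had an RPKM of 39.6 and 44.1, Adora2a of 27.5 and 38.1, and P2ry14 of 21.8 and 21.6. P2ry1 was low, at 4.92 and 10.6, and Entpd1 lowest, at 1.77 and 1.45 RPKM. The order was the same in both groups. With the longest transcript in place of all exons, P2rx4 came before P2rx1 in both groups, and no other place changed. The quartiles over cells of neighbouring genes overlapped in both groups, except those of P2ry1 and P2ry14 in mature mast cells.

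P2ry2, a receptor for ATP and UTP, and Adora2b, an adenosine receptor that raises cyclic AMP, were listed at 0 reads in all 187 kept cells. Taken as 3 reads of the total, this allows at most 0.0252 CPM in the mature cells against 0.0251 CPM in BMCPs. By the same 3 counts, the share of cells with a read could be up to 3.19% of mature mast cells and 3.23% of BMCPs, and the exact upper limits are 3.85% and 3.89%. These limit cells with a read, not cells that express the gene. The 250 bases before the annotated start were compared for the 9 genes that have such a window in RefSeq on GRCm38.p6. Adora2a is not among them. The windows shown are those of P2rx1 and Adora3, both read in most cells, and of P2ry2 and Adora2b, which were not read. They are P2rx1 at chr11:72998895-72999144 (plus strand), Adora3 at chr3:105904171-105904420 (plus strand), P2ry2 at chr7:101011999-101012248 (minus strand) and Adora2b at chr11:62248734-62248983 (plus strand). Each runs 5′ to 3′ towards the start, and capitals mark CG dinucleotides.
P2rx1: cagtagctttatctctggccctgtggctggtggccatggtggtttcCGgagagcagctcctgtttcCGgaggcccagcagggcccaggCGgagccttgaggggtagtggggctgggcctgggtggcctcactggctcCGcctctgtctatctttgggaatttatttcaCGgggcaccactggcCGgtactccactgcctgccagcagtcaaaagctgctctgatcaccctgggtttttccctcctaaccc
Adora3: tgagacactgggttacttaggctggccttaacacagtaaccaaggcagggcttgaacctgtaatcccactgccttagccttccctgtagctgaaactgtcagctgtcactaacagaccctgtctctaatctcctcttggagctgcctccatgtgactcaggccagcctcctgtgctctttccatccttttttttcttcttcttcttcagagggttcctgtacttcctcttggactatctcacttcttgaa
P2ry2: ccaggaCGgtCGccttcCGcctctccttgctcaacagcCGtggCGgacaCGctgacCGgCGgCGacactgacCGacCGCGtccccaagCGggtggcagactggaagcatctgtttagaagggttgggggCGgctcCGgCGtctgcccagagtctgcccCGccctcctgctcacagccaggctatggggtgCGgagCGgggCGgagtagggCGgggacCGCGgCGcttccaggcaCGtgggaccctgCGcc
Adora2b: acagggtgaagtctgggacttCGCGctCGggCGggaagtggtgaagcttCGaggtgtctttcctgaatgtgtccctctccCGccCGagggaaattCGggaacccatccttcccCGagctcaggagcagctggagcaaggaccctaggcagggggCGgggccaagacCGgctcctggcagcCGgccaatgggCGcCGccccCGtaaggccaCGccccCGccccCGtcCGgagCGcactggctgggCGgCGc

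The windows of the unread receptors were rich in CG, with 26 in the P2ry2 window shown, 21 in its other window and 22 in Adora2b. The P2rx1 window held 6 and the Adora3 window held 0. P2rx7 windows held 4 and 6, and the P2ry14 windows between 1 and 4. P2rx4 held 13, P2ry1 held 20, and Entpd1 held 8 and 18 in its windows. Over all genes the relation ran the other way. Among 6341 genes with no read, the richest window of a gene held a median of 3 CG, and 7.22% had 20 or more. Among 1700 genes read in at least 50% of kept cells the median was 17, and 11.7% had 6 or fewer. The GATA motif, searched as AGATAA or TGATAA on both strands, was found in 4 of the 15 windows of the 9 genes (in P2rx1, P2rx7 and P2ry14), and in 16.6% of all 32851 windows of this length. The other motifs searched on both strands were AGGAAG (ETS) in 4 of 15 against 29.5% of all windows, CATGTG (E-box) in 2 against 12.3%, CACGTG (E-box) in 1 against 6.02% and TATAAA in 1 against 12.4%. The letters are a description of the windows and not of any binding.

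At 10 CPM or more P2rx4 was present in the most cells, and P2rx1 and P2rx7 came after Adora3. This order depended on the cut. At least 1 read of P2rx1 was found in 94 mature mast cells, of P2rx4 in 93 and of Adora3 in 92. In BMCPs these numbers were 85, 92 and 79. A cell was counted as having a gene at 10 CPM or more. P2rx1 encodes a fast-desensitising ATP-gated channel (ENSMUSG00000020787; chromosome 11 in GRCm38). Its CPM per cell in mature mast cells ran from 0.57 to 1531 with a median of 505. In BMCPs it ran from 0 to 1882 with a median of 216. The ranges overlapped fully, but the lower quartile was 255 CPM in the mature cells against 2.38 CPM in BMCPs. P2rx1 was present in 84 of 94 mature mast cells (89.4%, exact Clopper-Pearson 95% interval 81.3 to 94.8) and in 64 of 93 BMCPs (68.8%, 58.4 to 78.02). Pooled over cells it had 552 CPM in the mature cells (exact Poisson 95% interval 548 to 556) against 403 CPM in BMCPs (399 to 407). The log2 ratio of mature over BMCP, with 1 CPM added to each, was 0.45.

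P2rx4 encodes a channel with high calcium permeability that also sits in lysosomes. Its CPM per cell ran from 0 to 3105 in mature mast cells with a median of 929.8, and from 0 to 3120.1 in BMCPs with a median of 669. It was the gene present in most cells of each group, in 91 of 94 mature mast cells (96.8%, 90.96 to 99.3) and 79 of 93 BMCPs (84.9%, 76.03 to 91.5). Pooled CPM was 1016 in the mature cells against 943 in BMCPs, a log2 ratio of 0.11. P2rx7 encodes the channel that needs high ATP and is known for opening the way to inflammasome activation and cell death. Its CPM per cell ran from 0 to 1506 in mature mast cells with a median of 175, and from 0 to 1418 in BMCPs with a median of 204. For P2rx7, as for P2ry1 and Adora2a below, the share was higher in mature mast cells and the pooled CPM was higher in BMCPs. P2rx7 was present in 75 of 94 mature mast cells (79.8%, 70.2 to 87.4) and 61 of 93 BMCPs (65.6%, 55.02 to 75.1), while its pooled CPM was 237 and 263, a log2 ratio of -0.15. That sign turned under TMM scaling (0.093), ERCC scaling (0.76) and totals without granule genes (0.051).

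**Figure D1:**
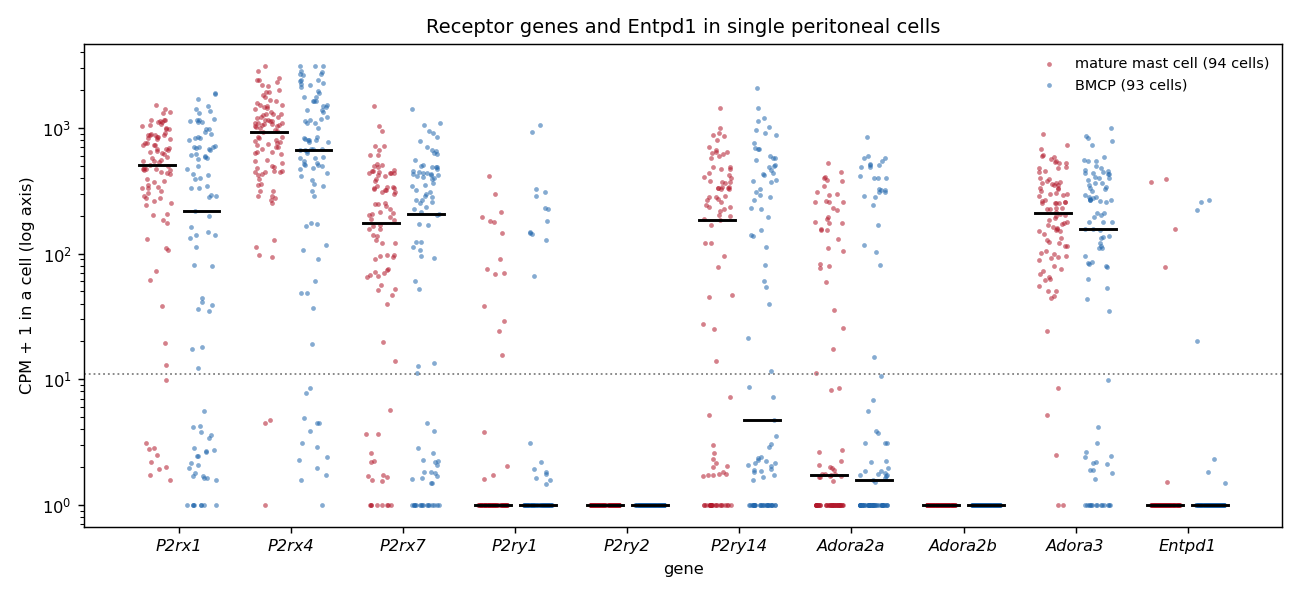
CPM + 1 of each gene (log axis) in each kept cell, 94 mature mast cells in red and 93 BMCPs in blue, with black bars at the group medians and a dotted line at 10 CPM. P2rx1, P2rx4, P2rx7 and Adora3 have most cells above the line in both groups, and P2ry2 and Adora2b have every cell at 0.

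The P2Y receptors were read in fewer cells. P2ry14, a receptor for UDP-glucose and related sugars, had a CPM per cell from 0 to 1452 in mature mast cells with a median of 185. In BMCPs it ran from 0 to 2070.4 with a median of 3.71. It was present in 58 of 94 mature mast cells (61.7%, 51.1 to 71.5) and 44 of 93 BMCPs (47.3%, 36.9 to 57.9). BMCPs with the gene had a median of 428 CPM and such mature mast cells 334 CPM. Pooled CPM was 242 and 239, a log2 ratio of 0.013.

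P2ry1, an ADP receptor that signals through Gq, was found in few cells of both groups. Its CPM per cell ran from 0 to 413 in mature mast cells and from 0 to 1063 in BMCPs, with a median of 0 in each. It was present in 15 of 94 mature mast cells (15.96%, 9.22 to 24.95) and 13 of 93 BMCPs (13.98%, 7.66 to 22.7). Pooled CPM was 21.1 in the mature cells (20.3 to 21.9) against 45.3 in BMCPs (44.1 to 46.6), a log2 ratio of -1.07. It rested on few cells, since BMCP 54 held 1369 of the 5419 BMCP reads and mature mast cell 76 held 635 of 2508. Without BMCP 54 the log2 ratio was -0.67, and without mature mast cell 76 it was -1.44. Of the P2ry1 exon bases, 23.1% overlap Gm37035 on the other strand, and the sources used here do not say whether counting used the strand.

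Of the adenosine receptors, Adora3 was present in most cells and Adora2a in a minority at 10 CPM or more. At least 1 read of Adora2a was found in 53 mature mast cells and 48 BMCPs. Adora3 signals through Gi. Its CPM per cell ran from 0 to 898 in mature mast cells with a median of 209, and from 0 to 1007 in BMCPs with a median of 157. It was present in 89 of 94 mature mast cells (94.7%, 88.02 to 98.3) and 66 of 93 BMCPs (70.97%, 60.6 to 79.9), the widest gap in share among the 10 genes, at 23.7 percentage points. Pooled CPM was close in both groups, at 249 and 237, a log2 ratio of 0.072. Of the Adora3 exon bases, 20.9% are shared with Tmigd3 on the same strand, so reads there could not be assigned to Adora3 alone. Adora2a encodes a receptor that raises cyclic AMP and dampens many immune cells. Its CPM per cell ran from 0 to 524 in mature mast cells with a median of 0.74, and from 0 to 846 in BMCPs with a median of 0.57. It was present in 35 of 94 mature mast cells (37.2%, 27.5 to 47.8) and 27 of 93 BMCPs (29.03%, 20.1 to 39.4). Pooled CPM was 84.3 in the mature cells against 117 in BMCPs, a log2 ratio of -0.46, which ERCC scaling turned to 0.44.

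Entpd1 (also called CD39), which converts ATP and ADP to AMP, was present in 4 of 94 mature mast cells (4.26%, 1.17 to 10.5) and 4 of 93 BMCPs (4.301%, 1.18 to 10.6). Its highest values were 393 CPM in a mature mast cell and 268 CPM in a BMCP, and its median was 0 in both groups. Pooled CPM was 9.89 and 8.12, a log2 ratio of 0.26. Mature mast cell 41 held 544 of the 1175 Entpd1 reads in mature mast cells, and the log2 ratio was -0.52 when it was left out.

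Read against all genes, the pooled levels of the receptors did not stand out. Of the 8 genes read at 5 CPM or more in either group, 1 (P2ry1) was at least 2-fold higher in BMCPs, where 19.2% of 10556 genes were, and 0 were at least 2-fold higher in mature mast cells, where 9.9% of genes were. The median log2 ratio was 0.042 over the 8 genes and -0.25 over all 10556. The median of all genes was -0.012 under TMM scaling and 0.63 under ERCC scaling. Relative to the median of all genes, the log2 ratio of P2rx1 was 0.70 and lay between 0.59 and 1.22 under every alternative run.

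**Figure D2:**
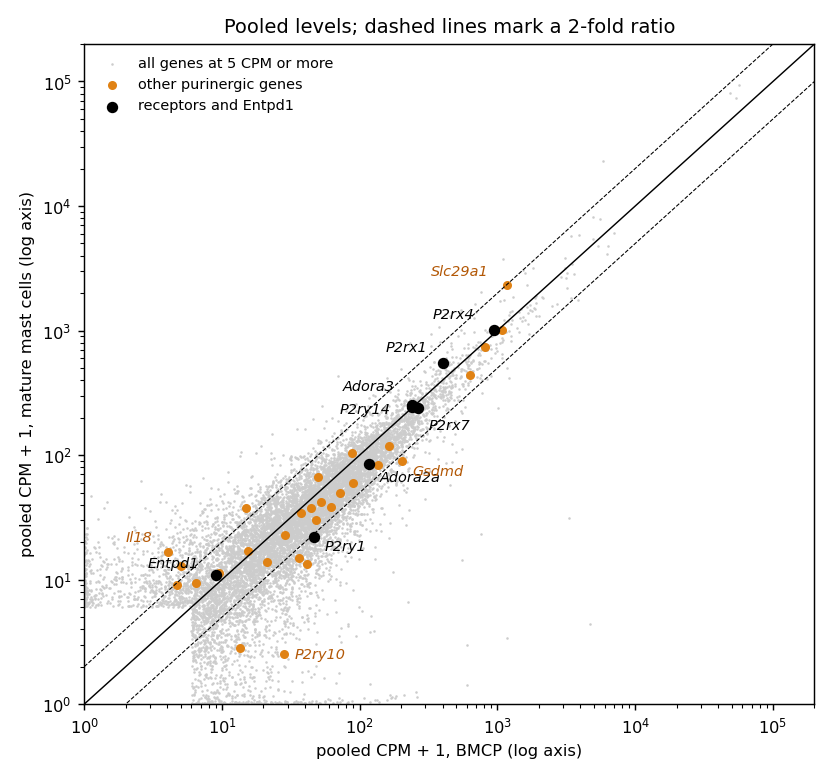
Pooled CPM + 1 in mature mast cells against BMCPs (log axes) for all genes at 5 CPM or more in grey, the receptors and Entpd1 in black and other purinergic genes in orange. Among the black points only P2ry1 lies beyond a dashed 2-fold line, and P2rx1 lies farthest above the line of equal levels among those past 100 CPM.

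**Figure D3:**
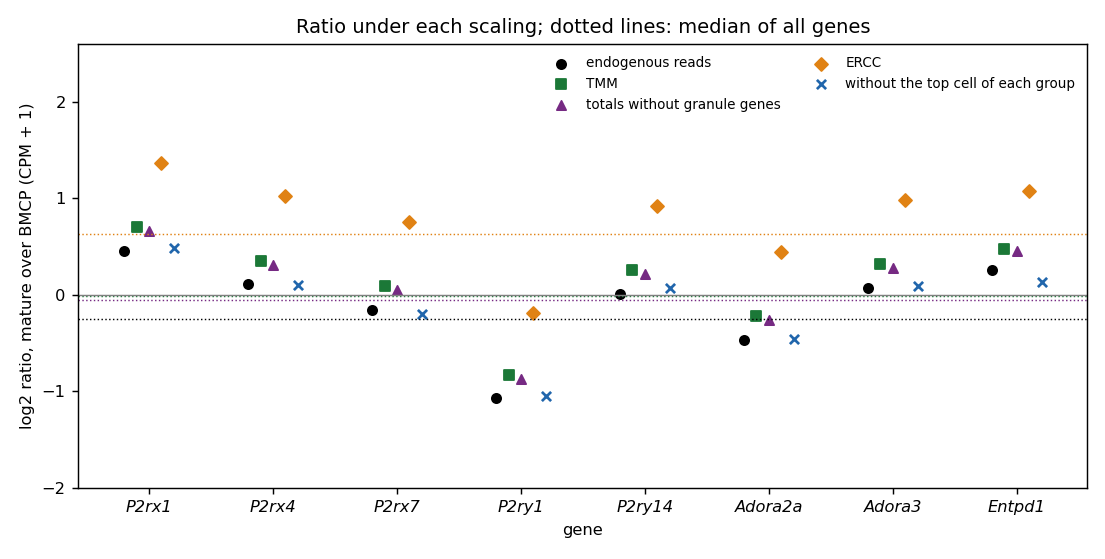
Log2 ratio of mature over BMCP for the 8 genes read, under 3 other scalings and without the cell of each group with the highest read count, with dotted lines at the median of all genes under each scaling. ERCC scaling raises every ratio, and P2rx1, P2rx4, P2ry14, Adora3 and Entpd1 stay above 0 under each setting shown.

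The share of cells with a gene leaned to mature mast cells for most genes of the table, with 69.3% of the 10556 genes higher there and a median difference of 3.16 percentage points. Of the 8 genes, 5 were present in a share of mature mast cells at least 10 percentage points higher than in BMCPs (P2rx1, P2rx4, P2rx7, P2ry14 and Adora3). For all genes this background was 21.1%. It was 46.4% among the 1976 genes at 100 CPM or more in a group, which hold 6 of the 10 genes and the same 5. None of the 8 genes was at least 10 points higher in BMCPs, where 2.74% of genes were. Counting cells with at least 1 read after thinning, 4 of the 8 kept such a gap, and P2rx4 did not. Counting any single read, only Adora3 did, since many BMCPs had a few reads of these genes below 10 CPM. Such cells numbered 21 for P2rx1, 13 for P2rx4 and 13 for Adora3 among BMCPs, and 10, 2 and 3 among mature mast cells. At a minimum of 100 CPM, 4 passed, and P2rx7 did not. In the first run of columns (the lower-numbered cells) 6 passed, and in the second run 3 did (P2rx1, P2ry14 and Adora3). P2rx4 was present in 97.9% of mature mast cells and 89.1% of BMCPs of that second run. Without BMCP 46, 53 and 80 the same 5 genes passed. No share of all genes was computed for these other settings, so their counts have no background. Among cells that had a gene, the median CPM was higher in BMCPs for 6 of 8 genes, against 81.7% of 9111 genes. This share is near the background.

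**Figure D4:**
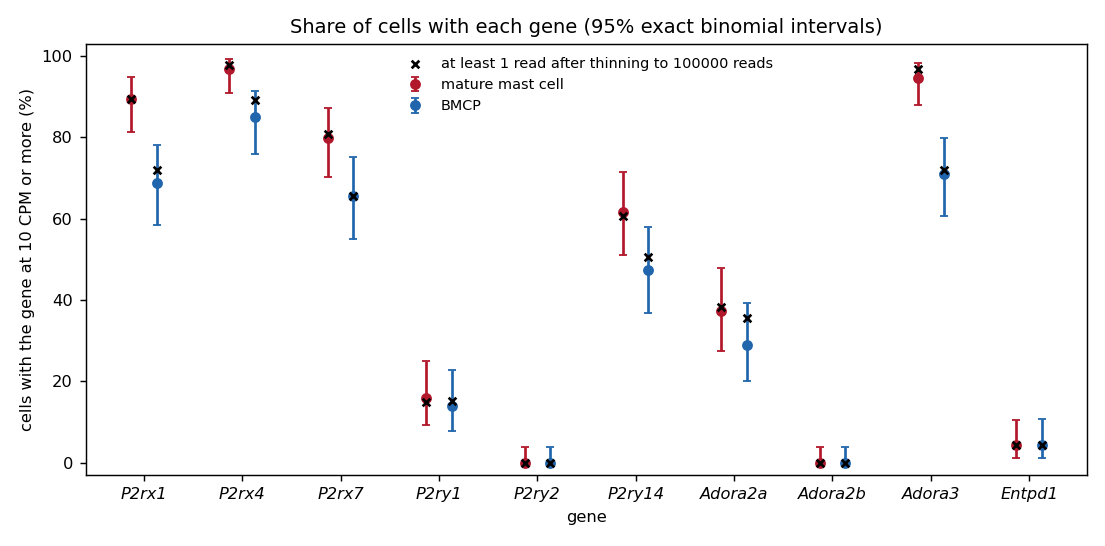
Percent of cells with each gene at 10 CPM or more in mature mast cells (red) and BMCPs (blue) with exact 95% binomial intervals, and crosses for cells with at least 1 read after thinning to 100000 reads. The intervals of P2rx1 and Adora3 do not overlap between the groups, and those of the other 8 genes do. Cells are not replicates, so overlap or its lack is no test between the groups.

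The cells carry numbers, and the lower-numbered run of columns was compared with the higher-numbered run, although the labels do not say whether the numbers follow the plates. P2rx7 was present in 44 of 47 mature mast cells of the first run (93.6%) and 31 of 47 of the second (65.96%). In BMCPs it was present in 32 of 47 (68.1%) and 29 of 46 (63.04%). Of the 1976 genes at 100 CPM or more in a group, 4.76% had shares of mature mast cells at least 20 points apart between the runs, and P2rx7 was the 1 of 6 receptor genes that did. The gap in P2rx7 share between mature mast cells and BMCPs was therefore wide in the first run and narrow in the second, and the part played by plate, mouse or index was not tested. P2ry1 also depended on the run, with a log2 ratio of 0.075 in the first and -1.63 in the second. For Entpd1 these were 1.41 and -0.98.

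Most cells had several of the receptors. The median mature mast cell had 5 of the 10 genes at 10 CPM or more (quartiles 4 and 5), and the median BMCP had 4 (quartiles 3 and 5). At least 4 were present in 85 of 94 mature mast cells (90.4%, 82.6 to 95.5) and 58 of 93 BMCPs (62.4%, 51.7 to 72.2). After thinning the medians were 5 and 4 as well. All 3 P2X channels were together in 66 mature mast cells (70.2%, 59.9 to 79.2) and in 38 BMCPs (40.9%, 30.8 to 51.5). In the first run of columns these shares were 82.98% and 42.6%, and in the second 57.4% and 39.1%. None of the 3 channels was present in 5 BMCPs and in no mature mast cell. Adora2a and Adora3 were together in 33 mature mast cells and 19 BMCPs. The only BMCPs with none of the genes at 10 CPM were BMCP 46 and BMCP 80, the pair with the lowest mast cell markers, where no gene passed 3.51 CPM. BMCP 53 had 679 CPM of P2rx4, 338 CPM of Adora3 and 169 CPM of P2rx7. Without these 3 cells, 64.4% of BMCPs had at least 4 genes. No background was computed for genes present together. The share of cells with a single gene was higher in mature mast cells for 69.3% of the 10556 genes, so these counts are no separate result.

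**Figure D5:**
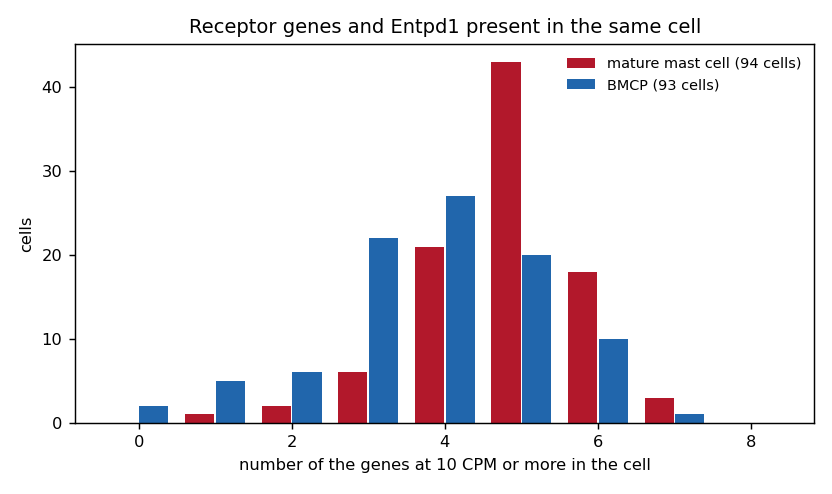
Number of kept cells (vertical axis) by how many of the genes they had at 10 CPM or more, for 94 mature mast cells and 93 BMCPs. Mature mast cells peak at 5 genes and BMCPs at 4, and the cells with none are 2 BMCPs.

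The levels of the genes were at most weakly related from cell to cell. Over 28 pairs of the 8 genes, Spearman's rho of log2(CPM + 1) ran from -0.16 to 0.20 over mature mast cells and from -0.12 to 0.23 over BMCPs, where both values of a cell share its depth. The genes most like a receptor across cells were also weakly related. Over 93 BMCPs the highest value for P2rx1 was 0.41, with Meis2, and over 94 mature mast cells it was 0.37, with Neat1. Values this low in sparse counts are no finding.

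BMCPs split by Gzmb, a granule protease gene, into 60 cells with at least 100 CPM and 33 below, with no cell between 50 and 200 CPM. P2rx1 was present in 65% (51.6 to 76.9) of the cells with high Gzmb and 75.8% (57.7 to 88.9) of those with low Gzmb. Adora3 was present in 65% and in 81.8% (64.5 to 93.02). The intervals overlapped for all 10 genes, but cells are not replicates, so the overlap is no test of a difference. Pooled CPM of P2rx4 was 859.6 with high Gzmb and 1091 with low Gzmb, and P2rx1 and Entpd1 were also lower with high Gzmb. Pooled CPM of P2rx7, P2ry1, P2ry14, Adora2a and Adora3 was higher with high Gzmb. For Adora3 it was 250 and 214, the other way from its share of cells.

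Other genes of purinergic signalling were taken from a list of 55, of which 54 were matched by symbol and 29 reached 5 CPM in a group. Of these 29, 3 were at least 2-fold higher in mature mast cells (9.9% of all genes were) and 5 were so in BMCPs (19.2%), and their median log2 ratio was -0.32. The remaining receptors were nearly absent. None of P2rx2, P2rx3, P2rx5 and P2rx6 reached 5 CPM, nor did Adora1. Of 5 further P2Y receptors only P2ry10, a lysophosphatidylserine receptor, did so, at 1.53 CPM in the mature cells against 27.2 CPM in BMCPs. BMCP 46 held 2512 of its 3246 BMCP reads, and without that cell the log2 ratio was -1.52 in place of -3.48.

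Few reads came from the enzymes that act on nucleotides at the cell surface. None of the 7 other ectoenzymes reached 5 CPM, and Nt5e (CD73), which makes adenosine from AMP, had 21 reads in the mature cells, 20 of them in 1 cell, and 0 in BMCPs. By contrast Slc29a1, the equilibrative nucleoside transporter that carries adenosine across the membrane, was among the higher genes of the list. It had 2317 CPM in the mature cells against 1171 CPM in BMCPs, a log2 ratio of 0.98 that was 1.23 under TMM scaling. It was present in 94 of 94 mature mast cells and 70 of 93 BMCPs. Slc29a3, a lysosomal nucleoside transporter, had 13.9 and 35.02 CPM, a log2 ratio of -1.27 that was -0.76 without BMCP 33. Panx1, an ATP release channel, had 10.3 and 8.53 CPM, and Slc17a9, which loads ATP into vesicles, had 41.1 and 51.5 CPM. Single cells set the direction of both. The log2 ratio of Panx1 was 0.24, and -0.47 without mature mast cell 61. That of Slc17a9 was -0.32, and 0.36 without BMCP 53, which held 2429 of 6158 BMCP reads. It was 0.98 in the first run of columns and -1.77 in the second.

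Inside the cell, Adk, which turns adenosine back into AMP, had 742 CPM in the mature cells against 814 CPM in BMCPs. Ada, which deaminates adenosine, had 65.4 and 49.1 CPM. Entpd7, an intracellular nucleotidase, had a log2 ratio of 1.37, which was 0.92 without mature mast cell 76. Ampd3, an AMP deaminase, had a log2 ratio of -1.62, and -0.25 in the first run of columns. Among G proteins, Gnai2, which couples receptors such as Adora3 to inhibition of adenylyl cyclase, had 1012 and 1083 CPM. Gnaq, which couples P2ry1 to phospholipase C, had 36.7 and 13.8 CPM, a log2 ratio of 1.35 (1.04 without mature mast cell 86). Gnas had 3.01 and 3.62 CPM, and 22.0% of its exon bases overlap genes on the other strand.

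Of the genes that link P2rx7 to inflammasome output, the sensor Nlrp3 had 0 reads in the mature cells and 223 in BMCPs, 222 of them in BMCP 28. Il1b had none in either group. The adaptor Pycard had 116 CPM in the mature cells against 163 CPM in BMCPs. Gsdmd, which forms membrane pores once cleaved, had 87.9 and 200.1 CPM, a log2 ratio of -1.18 that was -0.97 without BMCP 40 and -0.93 under TMM scaling. Casp1, the protease, had 1.82 and 12.6 CPM, with 926 of its 1501 BMCP reads in BMCP 80 and a log2 ratio of -2.27 that was -1.05 without it. Il18, a cytokine that Casp1 cleaves, had 15.8 and 3.09 CPM, a log2 ratio of 2.04 that was 1.63 without mature mast cell 36. In the first run of columns alone Gsdmd, Casp1, Slc29a3, Ampd3 and Entpd7 lay within 2-fold, and in the second run Il18 did.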

How the data were processed

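Single cells were sorted into 2 plates of 96 wells, their poly(A) RNA was amplified by 23 PCR cycles with ERCC RNA added, and 50 bp single-end reads were sequenced, per the labels' protocols. No molecular identifiers were used, so PCR copies count as separate reads. The authors deposited raw read counts per gene and cell, with no normalization. Per the submitters' processing notes, GSNAP, HTSeq 0.5.3p3 and mm10 were used. The annotation release and the strand setting are not given in the sources used here. In the pooled kept cells, reads with no feature made up 12.5% (mature mast cells) and 16.2% (BMCPs), and ambiguous reads 2.97% and 3.24%. Summary and ERCC rows stayed out of totals.

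Cells with at least 100000 endogenous reads were kept, and BMCP 6 (3978 reads) and BMCP 93 (36972) were left out. Doublets were not called. Reads were summed over a group's cells and divided by its endogenous reads (118831096 for mature mast cells, 119524686 for BMCPs) to give CPM. Ratios were log2 of CPM + 1 for genes at 5 CPM or more in a group, and 2-fold was the threshold. Symbols came from the supplied gene table, and exon lengths from GENCODE M21 on GRCm38. Analyses used Python 3.11.15, pandas 2.3.3, scipy 1.17.1 and, for TMM factors of the pooled profiles, edgeR 4.0.16. The steps were checked on simulated data. Named genes were all 10 genes and some, not all, of the purinergic genes at 5 CPM or more. The 3 most correlated genes were found for each of the 10 genes present in at least 20% of a group's cells. Of these correlated genes only Meis2 and Neat1 were named. Purinergic genes below 5 CPM were named after their values were seen, as were Gm37035, Tmigd3 and the marker genes of the cells that stood apart. The genes and lists were chosen with earlier results of these data known. No test was made between groups, since no cell was tied to a mouse.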

Additional observations from a re-analysis of the deposited data

How the results depend on the processing

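The count of genes at least 2-fold higher in BMCPs was 1 and became 0 under TMM scaling, ERCC scaling with or without BMCP 55, totals without granule genes, the median of per-cell CPM, 5 CPM added in place of 1, the first run of columns, a 3-fold threshold, and without BMCP 54, the cell with the highest P2ry1 read count. The count in mature mast cells was 0 and became 3 under ERCC scaling (P2rx1, P2rx4 and Entpd1), 2 with the median of per-cell CPM (P2rx1 and P2ry14), 1 in the first run of columns (Entpd1) and 1 under ERCC scaling without BMCP 55 (P2rx1). The P2ry1 log2 ratio reversed to 0.075 in the first run of columns. The share of all genes 2-fold higher in BMCPs was 7.25% under ERCC scaling and 14.2% under TMM, and in mature mast cells 32.7% and 13.4%. With the median of per-cell CPM, 42.5% of 1754 genes were 2-fold higher in mature mast cells and 5.19% in BMCPs. In the first run of columns these shares were 16.2% and 24.1%, and under ERCC scaling without BMCP 55 they were 25.1% and 8.58%. In BMCPs the share was 15.6% with totals without granule genes and 14.3% with 5 CPM added. Of the listed purinergic genes, 9 were 2-fold higher in the mature cells against 2 in BMCPs under ERCC scaling. Of 128 alternative log2 ratios, 43 stayed within the counting interval of the reported value, 84 moved beyond it, and 1 (P2ry1, above) reversed a 2-fold difference. The sign differed from the reported one in 14 of the 128, over 6 genes. P2rx7 had 4 of these, P2ry14 and Adora2a 3 each, Entpd1 2, and Adora3 and P2ry1 1 each. Adora3 was at -0.031 in the first run of columns, and P2ry14 at -0.065 without mature mast cell 66. Of 96 alternative shares, 79 stayed within their interval and 17 moved. The cause of these changes was not tested. Settings by run of columns, by single cell and without BMCP 46, 53, 80 or 55 were chosen after seeing the data. P2ry1 and Entpd1 rest on few cells, so single cells set their pooled levels. Thinning to 100000 reads left the Entpd1 shares at 4.26% and 4.301%. No paired analysis was possible because the replicate numbers only name cells and no test was made.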
